A study of Homo sapiens with 7 samples.

Results

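Blood and endothelial microRNAs were examined as 6 assays of the card: miR-126, miR-142-3p, miR-142-5p, miR-150, miR-223 and miR-451. They were taken by name from 377 human microRNA assays, and all 6 were found on each of the 7 cards. Each card was run on 1 line derived from MDA-MB-435-GFP, an established human tumor line that expresses green fluorescent protein. The 3 oligometastatic L1-R2 lines came from lungs of animals injected with L1-R1 cells, which had been grown from lung macrometastases. The 4 polymetastatic L1Mic-R2 lines came from lungs of animals injected with L1Mic-R1 cells, which had been grown from lung tissue free of macrometastases. According to the methods of the study, all hosts were female athymic mice injected through the tail vein, and all 7 lines were selected with G418 for the GFP vector. The sample labels differ on the route, giving the mammary fat pad, and they list the dye as SYBR Green beside a protocol with TaqMan reagents. Neither difference could be settled here. Each line stands for a distinct lung, and since no card was repeated, SDs within a group mix biological and measurement spread. The parental line and the host lung were not analysed here.

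MicroRNAs are short RNAs that pair through their seed with messenger RNAs and lower their translation and stability. The 6 named here are known from cell lineages that make up much of the lung outside of its epithelium. MiR-126 lies within EGFL7, a gene of endothelial cells, and is abundant in the lining of blood vessels. MiR-142 is transcribed in cells of all blood lineages and gives a microRNA from each arm of its hairpin. MiR-150 is abundant in mature lymphocytes, miR-223 in granulocytes and monocytes, and miR-451 in red blood cells. Athymic mice lack most T cells but keep B cells, myeloid cells, red blood cells and endothelium. These microRNAs are conserved between human and mouse, and the assays therefore do not tell RNA of the tumor line from RNA of the host.

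The measured strands are shown, where a sequence was at hand, so that it is clear which arm an assay reads and whether seeds are shared. RefSeq (GRCh38.p14) held 4 of the 6 mature sequences. For miR-150 and miR-451 neither arm nor seed is shown. The older names miR-126 and miR-223 stand for the arms now called 3p. The capitals mark the seed, bases 2 to 8, and the 4 seeds are distinct.
miR-126 (chr9:136670653-136670674, plus strand): uCGUACCGugaguaauaaugcg
miR-142-3p (chr17:58331245-58331267, minus strand): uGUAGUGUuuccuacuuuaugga
miR-142-5p (chr17:58331283-58331303, minus strand): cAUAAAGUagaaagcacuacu
miR-223 (chrX:66018937-66018958, plus strand): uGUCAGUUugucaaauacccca

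The hairpin of miR-142 is shown with both measured arms in capitals, since 1 arm had a Ct in some lines and the other arm in none. It overlaps the long noncoding RNA genes TSPOAP1-AS1 and MIR142HG in the RefSeq annotation.
MIR142 hairpin (chr17:58331232-58331318, minus strand): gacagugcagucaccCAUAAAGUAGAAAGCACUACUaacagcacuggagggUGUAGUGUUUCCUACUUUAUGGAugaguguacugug

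The files hold threshold cycles (Ct), that is, how many PCR cycles a well needs to reach a set fluorescence. A lower Ct stands for more RNA, and 1 cycle is about 1 unit on the log2 scale. A well that never reached it is called Undetermined and was listed at an average Ct of 40. A microRNA was called detected at a raw Ct below 38. Detection was somewhat broader on the oligometastatic cards, with 172 to 184 microRNAs per card against 160 to 172 on the polymetastatic ones. Mean raw Ct per card was 35.44 to 35.63 for the former and 35.64 to 36 for the latter. Detection in a single group is to be read beside this difference. Raw Ct of the control U6 lay between 15.97 and 16.77. The controls RNU44 (23.67 to 25.97) and RNU48 (18.81 to 20.97) spread more widely. The cards of the L1-R2 lines are numbered 1 to 3 and those of the L1Mic-R2 lines 4 to 7, and card order therefore cannot be told apart from group. Line numbers are those of the sample labels, and the file names swap 3T and 4T within L1-R2.

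By the detection limit, which 48% of the 377 microRNAs passed in at least 3 lines, 3 members could be tested. Of the 6 members, 1 was detected in all 7 lines (miR-126), 3 in some lines (miR-142-3p, miR-150 and miR-223), and 2 were Undetermined in every line (miR-142-5p and miR-451). Over all 377 microRNAs, 35.8% were detected in all 7 lines and 36.6% were Undetermined in all 7. Line by line, L1-R2 3T had 3 members detected, 4T had 4 and 8T had 2. L1Mic-R2 2T had 3, 3T had 2, 7T had 1 and 8T had 3. No line had more than 4 of the 6.

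**Figure D1:**
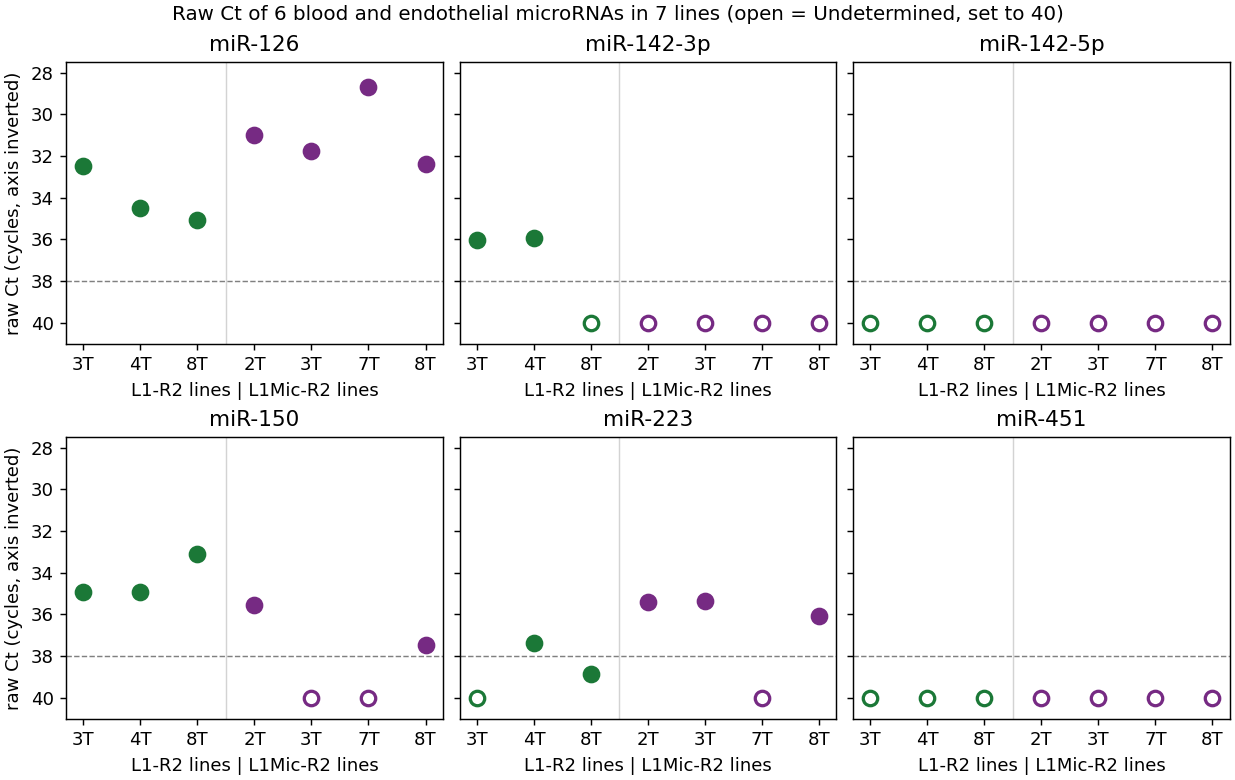
Raw Ct in cycles (inverted axis, so that more RNA is higher) for the 6 members, with 1 point per line, L1-R2 in green and L1Mic-R2 in purple. Open points are Undetermined wells set to 40, and the dashed line is the detection limit of 38. MiR-126 has a Ct in all 7 lines, miR-142-3p in 2 and miR-150 in 5, whereas miR-142-5p and miR-451 have none.

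MiR-126, known from endothelial cells, was detected in all lines, and after normalization every L1Mic-R2 line was above every L1-R2 line. Among the L1-R2 lines raw Ct was 32.46 for 3T, 34.50 for 4T and 35.06 for 8T. Among the L1Mic-R2 lines it was 30.98 for 2T, 31.75 for 3T, 28.71 for 7T and 32.41 for 8T. The raw groups did not overlap, as was the case after normalization for 19.3% of all microRNAs tested and in this direction for 8.84%, but the closest lines, 3T of L1-R2 and 8T of L1Mic-R2, lay 0.05 cycles apart. The error of a single line was not measured, and the 4 U6 wells of a card, an early and abundant control, already spread with an SD of 0.027 to 0.098 cycles. These 2 lines therefore cannot be placed in order. L1Mic-R2 line 7T stood highest, 2.27 cycles from the next line.

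After quantile normalization across the cards, the Ct of miR-126 was 32.74, 34.94 and 35.25 in the L1-R2 lines and 31.06, 31.87, 28.78 and 31.78 in the L1Mic-R2 lines. L1Mic-R2 lines 3T and 8T exchanged their places, and the order was otherwise as in raw Ct. The means were 34.31 ± 1.37 (SD, n = 3) and 30.87 ± 1.44 (SD, n = 4), and the gap between the closest lines was 0.87 cycles. L1Mic-R2 exceeded L1-R2 by 3.44 on the log2 scale (standard error 0.98, 95% interval 1.06 to 5.82), or 10.8-fold on the linear scale. This was the third largest increase among 181 microRNAs tested. The adjusted threshold was not passed (limma fit over all microRNAs tested, unadjusted p = 0.0121, Benjamini-Hochberg adjusted p = 0.104). The exact two-sided permutation test of the means gave p = 0.0286 for normalized Ct, the smallest p that 3 lines against 4 allow, and p = 0.0571 for raw Ct.  The difference was 2.75 without L1Mic-R2 line 7T and 4.27 without L1-R2 line 3T, the lowest and highest values when 1 line was left out.

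The lowest raw Ct of any other member was 33.09, that of miR-150 in L1-R2 line 8T. On the card of L1Mic-R2 line 7T, 62 microRNAs had a lower Ct than miR-126, and on that of L1-R2 line 8T there were 143. Ct of different assays also depends on the efficiency of each assay, so that such ranks are a description only. Among the 134 other microRNAs detected in all 7 lines, those with a pattern over the lines most like that of miR-126 were miR-330-3p (Pearson r = 0.975 for normalized and 0.868 for raw Ct, n = 7 lines), miR-345 (r = 0.952 and 0.866) and miR-876-5p (r = 0.8 and 0.841). The lines share their group and card order, and each of the 3 microRNAs was higher in all L1Mic-R2 lines than in all L1-R2 lines after normalization. Such non-overlap in this direction was found for 8.84% of all microRNAs tested. In raw Ct the groups overlapped for miR-330-3p, with 36.62 in L1-R2 line 4T and 36.95 in L1Mic-R2 line 8T. Normalization moved that L1-R2 line to 38.04. Raw Ct of miR-330-3p and of miR-876-5p was 34.42 or more in every line, where few molecules enter a well.

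**Figure D2:**
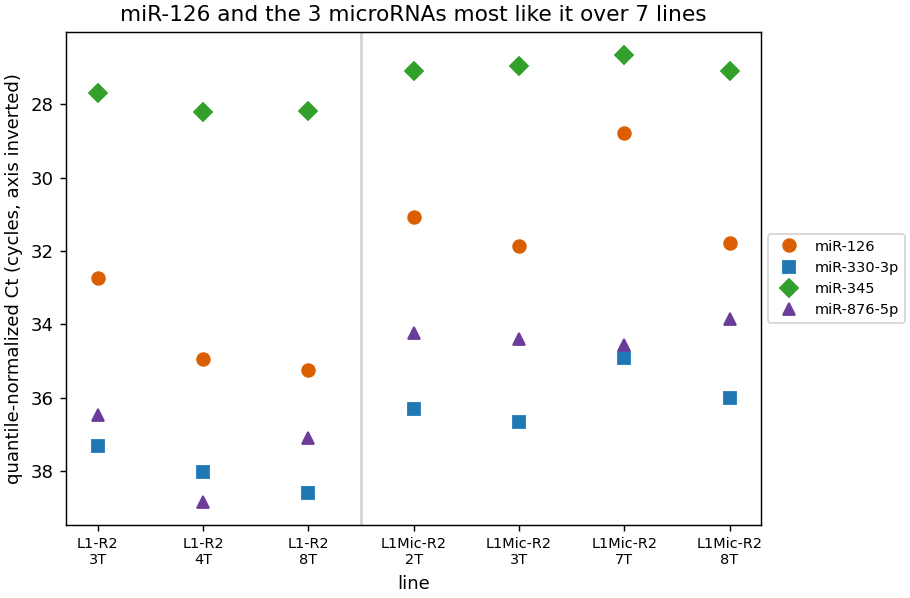
Quantile-normalized Ct in cycles (inverted axis) of miR-126 and of the 3 microRNAs with the highest correlation to it, by line, with L1-R2 on the left and L1Mic-R2 on the right. In all 4 the lowest L1Mic-R2 level lies above the highest L1-R2 level, and for miR-126, miR-330-3p and miR-345 the highest level is in L1Mic-R2 line 7T.

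MiR-150, known from mature lymphocytes, ran the other way. Among the L1-R2 lines raw Ct was 34.91 for 3T, 34.93 for 4T and 33.09 for 8T. In L1Mic-R2 it was 35.54 in line 2T and 37.46 in line 8T, and lines 3T and 7T were Undetermined. All 3 L1-R2 lines thus had an earlier Ct than any L1Mic-R2 line, by 0.61 cycles for the closest pair of raw values and by 0.40 after normalization. The raw means were 34.31 ± 1.06 for L1-R2 (SD, n = 3) and 38.25 ± 2.17 for L1Mic-R2 (SD, n = 4), and the difference of normalized values was -3.35 on the log2 scale (standard error 1.31, 95% interval -6.54 to -0.15). It did not pass the adjusted threshold (limma, p = 0.0426, adjusted p = 0.22; exact two-sided permutation test, p = 0.0857). Non-overlap in this direction was found for 10.5% of all microRNAs tested. The size rests on the Ct of 40 given to 2 Undetermined lines, and it was -2.35 with Ct limited to 38 and -0.53 with Ct limited to 35.

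MiR-223, known from granulocytes and monocytes, was detected in 1 of 3 L1-R2 and 3 of 4 L1Mic-R2 lines. Its raw Ct was 37.37 in L1-R2 line 4T and 38.86 in line 8T, past the detection limit, and line 3T was Undetermined. In L1Mic-R2 it was 35.42, 35.35 and 36.07 in lines 2T, 3T and 8T, and line 7T was Undetermined. The groups overlapped through line 7T, the line with the most miR-126. The normalized means were 39.57 ± 0.42 for L1-R2 (SD, n = 3) and 36.50 ± 2.34 for L1Mic-R2 (SD, n = 4), which gave 3.07 on the log2 scale (standard error 1.26, 95% interval -0.0032 to 6.15). The test was not passed (limma, p = 0.0502, adjusted p = 0.245; exact two-sided permutation test, p = 0.143). The same difference was 2.03 for raw Ct, and normalization moved L1-R2 line 4T from 37.37 to 39.17. The size depends on the Ct of 40 given to Undetermined wells in both groups, and it was 1.97 with Ct limited to 38. MiR-223 entered the fit through its 3 detected L1Mic-R2 lines, the group where it was higher, so that the filter favored this direction. Without L1Mic-R2 line 7T the difference was 4.19 (limma, adjusted p = 0.00254). That fit drops the only L1Mic-R2 line that overlapped L1-R2, so that its p is no independent test.

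MiR-142-3p, a mark of blood cells in general, was detected in L1-R2 lines 3T and 4T with a raw Ct of 36.03 and 35.93. It was Undetermined in L1-R2 line 8T and in all 4 L1Mic-R2 lines. With detection in 2 of 7 lines it did not enter the fit, and the exact two-sided permutation test with Undetermined at 40 gave p = 0.143. Detection, at a raw Ct below 38, in at least 2 L1-R2 lines and in no L1Mic-R2 line was found for 9 of the 377 microRNAs, or 2.39%. Its partner miR-142-5p, from the other arm of the same hairpin, had no Ct in these 2 lines or in any other.

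MiR-451, which is abundant in red blood cells, was Undetermined in all 7 lines. A further 2 assays read the red-cell microRNA miR-486, and both were near the limit. MiR-486-5p had a raw Ct of 37.14 in L1-R2 line 4T and 38.18 in line 3T. MiR-486-3p had one of 35.86 in L1Mic-R2 line 2T and 39.57 in L1-R2 line 4T. In the other lines both were Undetermined.

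Of the 3 members tested, 2 were higher and 1 was lower in L1Mic-R2, and 0 passed an adjusted p under 0.05 (limma), against 9 of 181 or 4.97% over all microRNAs (3.31% higher and 1.66% lower in L1Mic-R2). At an unadjusted p under 0.05 there were 2 members, miR-126 (higher) and miR-150 (lower), against 19.3% over all, 9.39% higher and 9.94% lower. The log2 fold changes of the 3 were 3.44, 3.07 and -3.35, and their median of 3.07 is the value of miR-223 alone. The median of all 181 was 0.06. The median of the 3 covers only members that passed the detection filter, and it gives no common direction of the members. Neither miR-150 nor miR-223 would have passed the filter on the lines of its lower group alone.

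**Figure D3:**
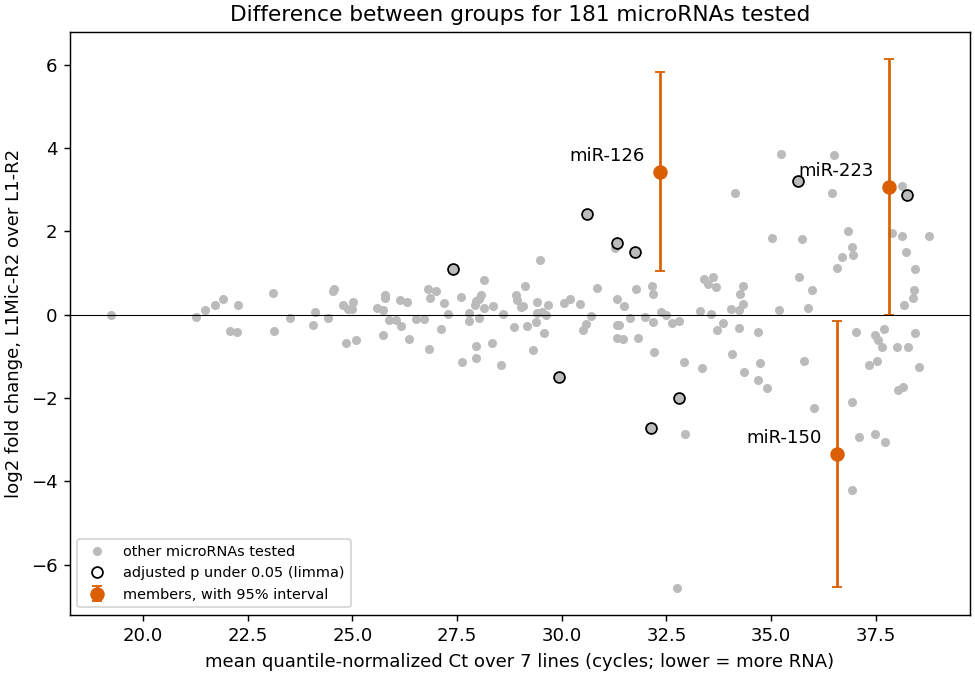
Log2 fold change (L1Mic-R2 relative to L1-R2) against the mean quantile-normalized Ct in cycles for the 181 microRNAs tested. Orange points are the 3 members that entered, with 95% intervals, and circled points are the 9 microRNAs at an adjusted p under 0.05. MiR-126 lies at 3.44, miR-223 at 3.07 and miR-150 at -3.35, and the spread of all points grows toward late Ct.

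Other lists of lineage microRNAs were set beside the members. Of the mesenchymal list, which marks fibroblasts and smooth muscle, 5 of 6 (miR-143, miR-145, miR-199a-5p, miR-199b-5p and miR-214) were Undetermined in all 7 lines. The exception was miR-199a-3p, with a raw Ct of 35.88 in L1-R2 line 8T, 36.08 in L1Mic-R2 line 2T and 36.19 in L1Mic-R2 line 7T. The difference between groups was 0.39 on the log2 scale, with a standard error of 1.52 (limma, adjusted p = 0.895). The line with the most miR-126, L1Mic-R2 line 7T, had 1 mesenchymal microRNA near the limit. Its miR-142-3p, miR-142-5p, miR-150, miR-223 and miR-451 were Undetermined. It was also the only L1Mic-R2 line with a raw Ct below 38 for miR-218 of the endothelial list (35.90). The same held for miR-429 (35.20) and miR-203 (36.50) of the epithelial list and miR-133a (35.57) of the muscle list. The card of L1Mic-R2 line 7T had 172 microRNAs detected, against 164, 167 and 160 on those of lines 2T, 3T and 8T. These microRNAs were named after their values were seen, and the share of all microRNAs with this pattern was not counted. The source of these signals was not tested.

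Of 4 further endothelial microRNAs listed, 2 were on the card, and neither passed the adjusted threshold. MiR-139-5p had a mean raw Ct of 29.47 ± 0.70 in the L1-R2 lines (SD, n = 3) and of 29.34 ± 0.61 in the L1Mic-R2 lines (SD, n = 4). Its difference was 0.30 on the log2 scale, with a standard error of 0.36 (limma, adjusted p = 0.718). MiR-218 was detected in all 3 L1-R2 lines, at 35.93, 34.48 and 36.42, and in 1 L1Mic-R2 line, line 7T, at 35.90. Its difference was -3.07 on the log2 scale, with a standard error of 1.10 (limma, adjusted p = 0.18). This sign was opposite to that of miR-126. The size rests on the Ct of 40 given to the 3 Undetermined L1Mic-R2 lines. MiR-218 entered the fit through its 3 detected L1-R2 lines, the group where it was higher, so that the filter favored this direction.

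The other blood list held 8 microRNAs on the card, of which 4 were detected in all lines, 3 in some and 1 in none. Among them were miR-146a, miR-155, miR-16 and miR-342-3p, which many tumor lines also express. MiR-146a was the earliest, with a mean raw Ct of 18.72 ± 0.39 for L1-R2 (SD, n = 3) and 19.61 ± 0.36 for L1Mic-R2 (SD, n = 4), and miR-342-5p was Undetermined in all lines. The raw values of miR-146a did not overlap between the groups, from 18.32 to 19.11 in L1-R2 and from 19.33 to 20.10 in L1Mic-R2. Quantile normalization gave it the same value in all 7 lines, so that its log2 fold change of 0.00, which is also the median of the 5 tested, was set by the normalization and is no test. Of the other 4 tested, 0 passed, at an unadjusted p under 0.05 as well (limma).

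The tumor line was checked against microRNAs of melanocytes and melanoma, because MDA-MB-435 is known to carry a melanoma profile. Of 8 on the card, 6 were detected in all 7 lines and 2 in some. MiR-204 had a mean raw Ct of 25.91 ± 0.12 for L1-R2 (SD, n = 3) and 26.64 ± 0.27 for L1Mic-R2 (SD, n = 4), and miR-513-5p, the latest, one of 36.53 or more in every line. MiR-211, a microRNA of the melanocyte gene TRPM1, was Undetermined in L1Mic-R2 lines 2T and 8T and had a raw Ct of 27.49 to 33.33 in the other lines. All 7 that were tested had a negative log2 fold change, with a median of -0.95, against 83 of 181 over all microRNAs tested. MiR-506, miR-508-3p, miR-509-5p, miR-509-3-5p and miR-510 belong to the same genomic cluster, so that the 7 are not separate results. Of the 7, 1 passed (miR-509-3-5p, -2.71, adjusted p = 0.0392 from limma), against 1.66% called lower over all. At an unadjusted p under 0.05 (limma) there were 4, all lower in L1Mic-R2, against 9.94% lower over all. Summed on the linear scale and given as log2 of 2 to the power of 40 minus normalized Ct, the list ran from 15.15 to 15.45 in L1-R2 and from 14.16 to 14.82 in L1Mic-R2. The same sum of the 6 members, made up mostly of miR-126 in L1Mic-R2, ran from 6.23 to 7.59 and from 8.27 to 11.22. In L1-R2 line 8T miR-150 was the earlier, at a normalized Ct of 33.54 against 35.25 for miR-126. The member sums thus largely restate the miR-126 values in L1Mic-R2. Assays differ in efficiency, so that the sums of the 2 lists cannot be compared as amounts of RNA. In bulk RNA, more cells of a type and more RNA per cell cannot be told apart, and the part of host cells in these values was not tested.

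**Figure D4:**
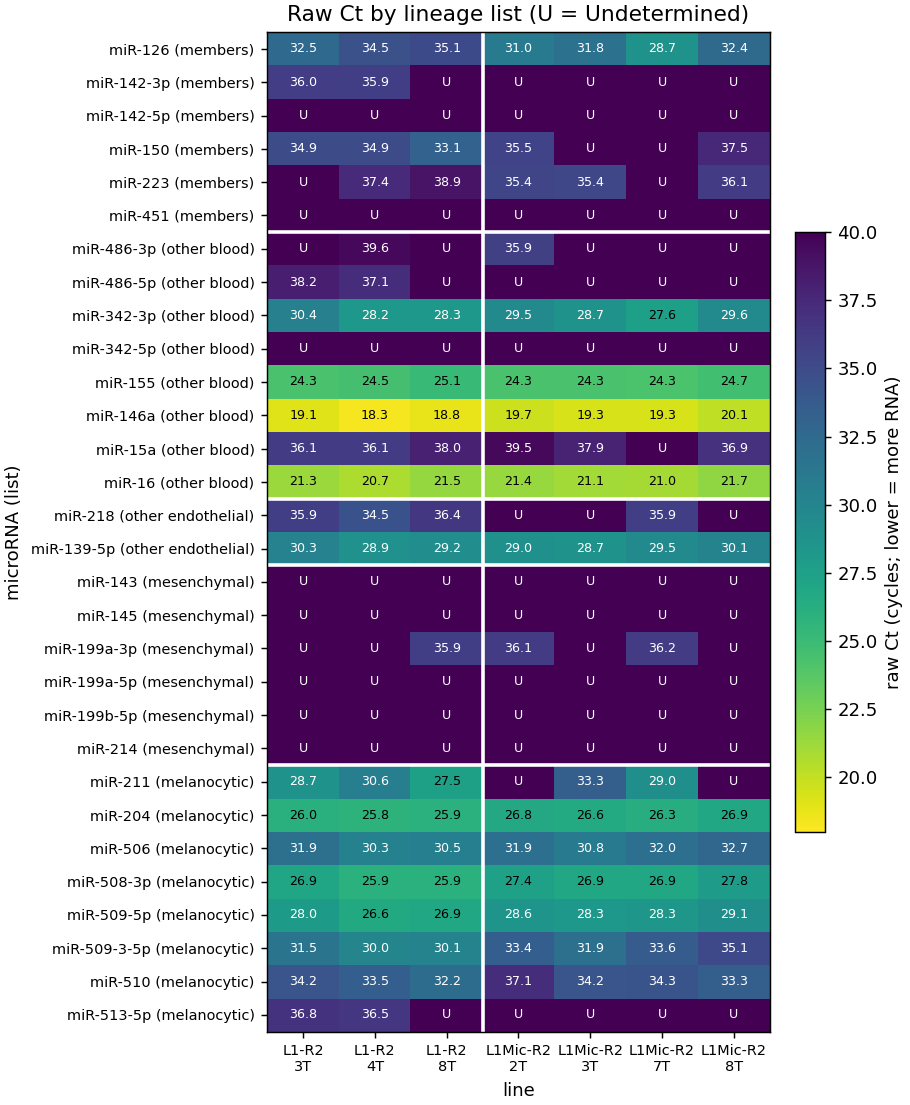
Raw Ct in cycles for the members and 4 other lineage lists (rows) in the 7 lines (columns, L1-R2 left of the white line), with U for Undetermined wells. The mesenchymal rows are Undetermined but for miR-199a-3p in 3 lines, and 6 of the 8 melanocytic rows have a Ct in all 7 lines.

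Of the remaining lists, 2 of 8 epithelial microRNAs were detected in all lines, from miR-200c, with a mean raw Ct of 32.46 ± 2.08 for L1-R2 (SD, n = 3) and 34.17 ± 1.29 for L1Mic-R2 (SD, n = 4), to miR-205, which was Undetermined. The 4 tested, miR-200a, miR-200b, miR-200c and miR-429, are of the miR-200 family and thus not separate results. All 4 had a negative log2 fold change (83 of 181 over all), with a median of -1.33. Of these, 0 passed the adjusted threshold (limma, 1 at an unadjusted p under 0.05). Of 6 muscle microRNAs, 3 were detected in some lines and 3 in none, from miR-133a (38.90 ± 1.90 and 38.26 ± 1.90) to miR-208b, which was Undetermined. The liver microRNA miR-122 was detected in 1 line, at 36.07 in L1-R2 line 8T. Of 5 neural microRNAs, 2 were detected in all lines, from miR-138 (23.79 ± 0.47 and 24.28 ± 0.35) to miR-219-5p (38.65 ± 2.33 and 40), and of the 3 tested 0 passed at an unadjusted p under 0.05 (limma).

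**Figure D5:**
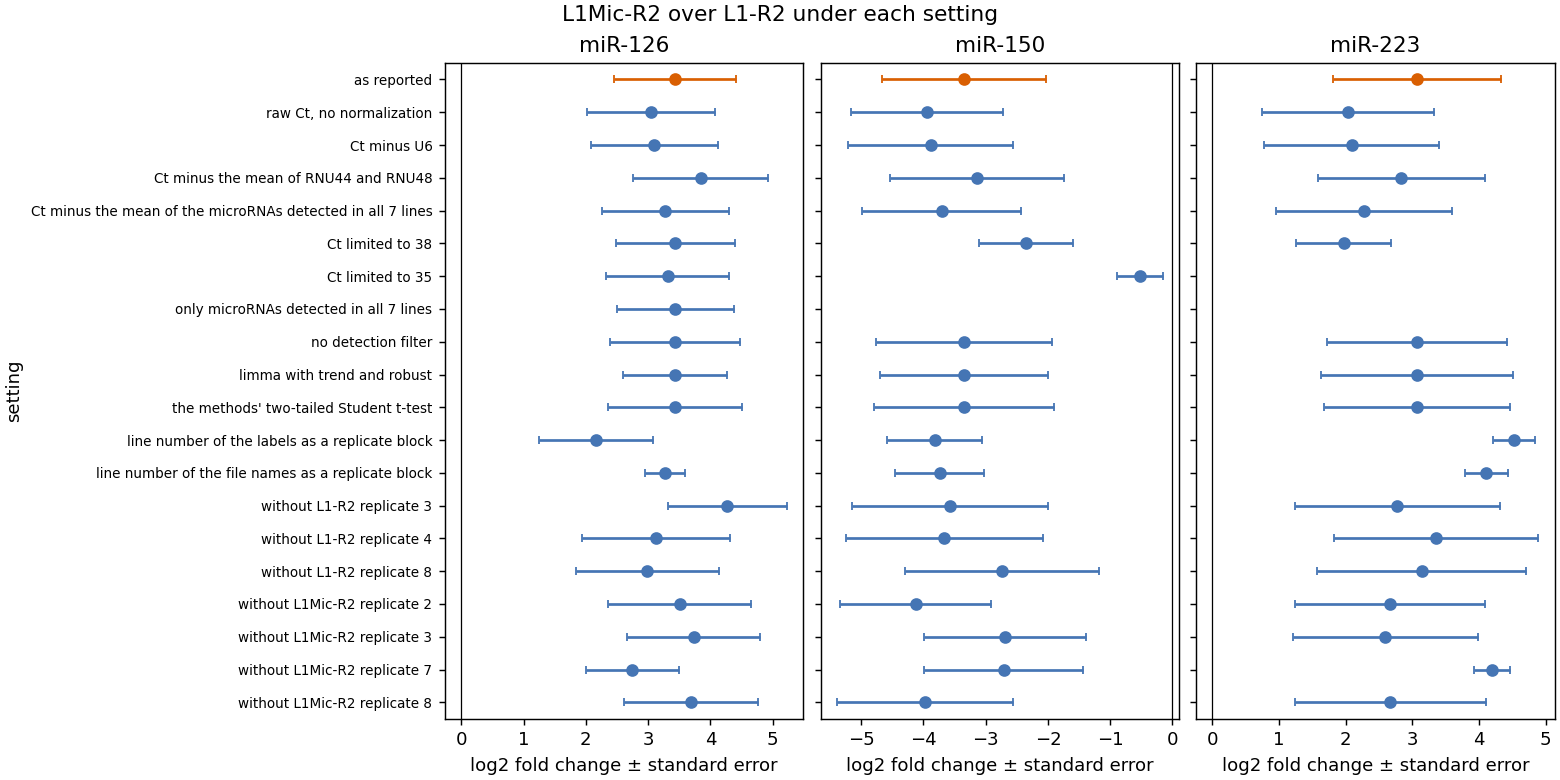
Log2 fold change (L1Mic-R2 relative to L1-R2) with its standard error for miR-126, miR-150 and miR-223 (columns) as reported (orange) and under each other setting (blue, rows). A missing point means that the setting gave no value. Every miR-126 value is positive, from 2.17 to 4.27, and every miR-150 value is negative, from -4.12 to -0.53.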

How the data were processed

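Total RNA of 7 lines was measured on TaqMan Human MicroRNA Array A cards. According to the paper, the authors used SDS RQ Manager. The deposited files hold raw threshold cycles (Ct), not yet normalized, and the average Ct of each assay was used, with Undetermined wells at 40. R 4.3.3 with limma 3.58.1 was used for quantile normalization of the 381 assays. Detection in 3 or more lines, at a raw Ct under 38, was required for a test (181 of 377 microRNAs). The moderated test of limma was run on 40 minus Ct, and p was adjusted over all 181 by Benjamini-Hochberg. Single members were compared by an exact two-sided permutation test over the 35 assignments of 7 lines. Functions were tested on simulated data. The named microRNAs are the 6 members, U6, RNU44 and RNU48, the 3 most correlated with each member detected in all lines, and the earliest and latest of each lineage list. Others of these lists were named after their values were seen. The members and lists were chosen with earlier results of these data known. Alternatives were other normalizations, limits on Ct, filters and fits, each line left out in turn, and a replicate block. The numbers 3T and 8T are shared across groups, but same-numbered lines come from distinct animals.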

Additional observations from a re-analysis of the deposited data

Results flagged for a closer look

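For miR-223, line 7T of L1Mic-R2 was set apart from the other 3 lines of its group. The gap between them made up 0.944 of the range of normalized Ct and 0.845 of that of raw Ct, both above Dixon's critical value for 4 lines. Line 7T was Undetermined and the other lines lay between 35.25 and 35.51, so that the distance depends on the Ct of 40 given to such wells. Of 3 members with values that vary in L1Mic-R2, 1 stood apart. For measured, normally spread values chance alone does so in about 1 of 20 groups. That rate does not hold for a value set to 40, so that no conclusion is drawn from it.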

How the results depend on the processing

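The log2 fold changes of miR-126, miR-150 and miR-223 kept their sign under every alternative that gave a value. For miR-126 (3.44, adjusted p = 0.104) 1 of 19 alternatives passed the adjusted threshold, limma with trend and robust (3.44, adjusted p = 0.0289). For miR-223, with a range of 2.60 to 4.19 when 1 line was left out, it was 1 of 17. That was the fit without L1Mic-R2 line 7T, the only line of its group that overlapped L1-R2. For miR-150 it was 0 of 18. With Ct limited to 35 every miR-223 value is at the limit, and the filter on all 7 lines leaves out miR-150 and miR-223. The number of members past the threshold was therefore 1 with trend and robust and 0 to 1 when 1 line was left out. The number of members detected in all lines was 0 with a limit of 35. The 9 microRNAs that passed over the whole card became 14 under the filter on all 7 lines and 21 with trend and robust. They were 0 with RNU44 and RNU48, without a detection filter and with the methods' t-test (37, 36 and 35 at an unadjusted p under 0.05), and 0 to 4 when 1 line was left out. Of the 9, 6 were higher in L1Mic-R2, against 3 of 6 for raw Ct, 1 of 8 with U6 and 5 of 10 relative to the mean over microRNAs. The median log2 fold change of all tested was -0.25 without normalization (miR-126 at 3.04), -0.19 relative to U6 (3.10) and 0.56 relative to RNU44 and RNU48 (3.85). A replicate block on the number of the line gave 2.17 for miR-126, -3.82 for miR-150 and 4.53 for miR-223, and 0 microRNAs passed (19 unadjusted). With the numbers of the file names they were 3.27, -3.73 and 4.11, and 0 passed (27 unadjusted). These fits have 1 residual degree of freedom. Deviations of same-numbered lines correlated at -0.044 (3T) and -0.197 (8T) by the labels, and at 0.019 and -0.197 by the file names. No pairing was seen in these few pairs. Unless stated, the cause was not tested. With 1 card per line and most members near the detection limit, a member that is Undetermined is not shown to be absent.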

Other observations

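No member was detected in a single line alone, but 29 of the 377 microRNAs were, and 152 were detected in none. By line, the 29 were 1 in 3T, 6 in 4T and 9 in 8T of L1-R2, and 2 in 2T, 3 in 3T, 5 in 7T and 3 in 8T of L1Mic-R2. Among the 44 microRNAs of the other lineage lists, 7 were of this kind, 6 in an L1-R2 line and 1 in an L1Mic-R2 line. They were both miR-486 assays of the other blood list, the liver microRNA miR-122, 2 muscle microRNAs, miR-1 (raw Ct 33.42 in L1-R2 line 8T) and miR-499-5p (34.29 in L1-R2 line 4T), and 2 neural ones, miR-124 (36.73 in L1-R2 line 8T) and miR-219-5p (35.96 in L1-R2 line 4T). These were named after their values were seen.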
